A study of Mus musculus with 13 samples.

Results

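The change in autosomal CpG methylation between male mouse embryonic fibroblasts (MEFs) and male induced pluripotent stem cells (iPSCs) was measured in 5 of the 13 libraries of a mouse reduced representation bisulfite sequencing (RRBS) series. The male iPSC libraries 1, 2 and 4 and the male MEF libraries 4 and 5 were chosen by their labels, which give cell type and sex and no strain, age, passage, line or reprogramming vector. The iPSCs had been freed of feeder cells before DNA was isolated, per the labels. The autosomes 1 to 19 were divided into tiles of 1 kb, and the level of a tile is the percent of its CpG reads that were methylated. A tile was kept where each of the 5 libraries read at least 3 CpGs and had at least 10 reads, which left 95772 of the 539151 tiles with a CpG read in any library of the series. The other 8 libraries came from female iPSCs labelled XO (4) or XaXa (2) and from male cells sorted as negative or positive for the pluripotency surface marker SSEA1 (1 each).

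CpG methylation is copied at cell division by the maintenance methyltransferase Dnmt1 and set by Dnmt3a and Dnmt3b, and it is lost by dilution or after oxidation by Tet enzymes. Most CpGs of a somatic cell are methylated, while CpG islands at gene starts are mostly free of methylation. Genes that are kept silent by promoter methylation in somatic cells include many germline genes, and transposable elements are methylated along their CpG-rich parts. During reprogramming a fibroblast acquires the expression and the methylation pattern of a pluripotent cell.

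The libraries held 8042155 to 60276866 reads summed over CpGs, with a median of 39 to 251 reads per kept tile. A read that spans several CpGs counted at each of them. The library labelled male MEF 5 goes against its label on the sex chromosomes. Its Y reads were 0.0219% of autosomal reads, against 0.0793% to 0.0913% in the other 4 libraries, and its X to autosome depth ratio was 0.907 against 0.760 to 0.775. It is therefore called by its label, and values without it are given where results rest on it. Since the labels name no culture or animal of origin, the spread behind each p-value is one between libraries and may be technical.

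The following promoters are examples of the change, with levels given over the CpGs that all 5 libraries read. They were chosen after their values were seen, 4 for a loss of methylation and 1 for a gain. Ddx4 (an RNA helicase of germ cells), Mael (a factor of the piRNA pathway that silences transposons in germ cells) and Slc25a31 (an ADP/ATP carrier of the male germline) stand for germline genes. Jade1 (a subunit of a histone acetyltransferase complex) had the largest loss at a matched gene start. Abcc9 (the regulatory subunit of a potassium channel) stands for the gains. Each sequence runs from 250 bases before to 50 bases after a start site in RefSeq (GRCm38.p6), 5′ to 3′ in the gene's direction. Capitals mark the CpGs that had at least 1 read in each of the 5 libraries.
Ddx4: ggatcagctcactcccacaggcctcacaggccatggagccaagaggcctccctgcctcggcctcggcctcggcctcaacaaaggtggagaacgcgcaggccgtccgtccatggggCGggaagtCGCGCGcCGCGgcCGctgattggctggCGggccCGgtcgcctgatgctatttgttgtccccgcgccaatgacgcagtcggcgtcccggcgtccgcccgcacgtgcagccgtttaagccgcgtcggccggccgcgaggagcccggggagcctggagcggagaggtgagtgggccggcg
Mael: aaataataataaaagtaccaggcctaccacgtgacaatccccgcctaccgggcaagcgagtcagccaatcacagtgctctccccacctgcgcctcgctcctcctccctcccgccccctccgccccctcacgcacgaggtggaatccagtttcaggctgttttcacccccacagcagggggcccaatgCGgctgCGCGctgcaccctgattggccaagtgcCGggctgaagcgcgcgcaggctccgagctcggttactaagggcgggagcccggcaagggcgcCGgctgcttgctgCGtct
Slc25a31: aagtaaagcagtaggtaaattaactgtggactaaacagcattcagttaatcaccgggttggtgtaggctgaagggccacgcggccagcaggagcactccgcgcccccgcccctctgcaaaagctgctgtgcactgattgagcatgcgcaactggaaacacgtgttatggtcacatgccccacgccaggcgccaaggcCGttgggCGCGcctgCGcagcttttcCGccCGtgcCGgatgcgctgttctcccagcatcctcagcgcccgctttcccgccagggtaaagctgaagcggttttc
Jade1: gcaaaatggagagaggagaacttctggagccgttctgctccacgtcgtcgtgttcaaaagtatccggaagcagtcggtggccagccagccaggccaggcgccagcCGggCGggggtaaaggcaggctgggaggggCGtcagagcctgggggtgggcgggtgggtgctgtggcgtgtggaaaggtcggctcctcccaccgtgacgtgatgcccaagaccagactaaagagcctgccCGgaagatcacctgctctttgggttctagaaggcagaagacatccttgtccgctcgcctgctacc
Abcc9: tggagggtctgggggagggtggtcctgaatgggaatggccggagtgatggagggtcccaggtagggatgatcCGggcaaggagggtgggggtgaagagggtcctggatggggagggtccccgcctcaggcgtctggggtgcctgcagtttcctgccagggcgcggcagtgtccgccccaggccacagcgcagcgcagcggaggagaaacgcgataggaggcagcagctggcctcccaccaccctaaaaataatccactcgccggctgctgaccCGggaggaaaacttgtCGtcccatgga
In the deposited tables (mm9) the first and last CpGs of these windows lie at chr13:113442469-113442710 for Ddx4 (minus strand), chr1:168168829-168169076 for Mael (minus), chr3:40512596-40512835 for Slc25a31 (plus), chr3:41359470-41359695 for Jade1 (plus) and chr6:142650754-142651004 for Abcc9 (minus). Over the 4 CpGs in capitals of Jade1, 2.38%, 2.17% and 3.6% of reads were methylated in iPSC 1, 2 and 4, and 100% and 96.2% in MEF 4 and 5. Nearly every MEF read and almost no iPSC read carried methylation there, although MEF 4 had only 12 reads summed over these CpGs. Over the CpGs in capitals of Mael, Slc25a31 and Ddx4 it had 18, 14 and 18 reads summed likewise. Over those of Abcc9 it had 26. At each single CpG in capitals, MEF 4 had 3 reads in Mael and 2 in Slc25a31 and Ddx4. Its levels there thus rest on very few reads. Over the 6 CpGs of Mael the levels were 18.7%, 14.4% and 19.8% in iPSC and 100% and 77.3% in MEF. Over the 7 CpGs of Slc25a31 they were 35.3%, 27.0% and 34.8% in iPSC against 100% and 97.2% in MEF. The iPSC levels of both genes were far below those of either MEF library but not near 0. Over the 9 CpGs of Ddx4 the levels were 2.78%, 25.9% and 21.2% in iPSC, and 44.4% and 81.5% in MEF, so the MEF libraries lay apart from each other. The lowest of these levels, in iPSC 1, rests on 36 reads summed over the 9 CpGs, with 4 at each. Single CpGs of Ddx4 did not all follow this order. At chr13:113442631 the levels were 0%, 33.3% and 41.7% in iPSC against 0% and 100% in MEF. In Abcc9 the order was the other way round, with 57.8%, 81.3% and 35.8% in iPSC against 7.69% and 0% in MEF over 3 CpGs.

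Methylation was lower in iPSCs than in MEFs over the tested autosomal tiles as a whole. The mean tile level was 50.3%, 53.8% and 53.6% in iPSC 1, 2 and 4 and 59.6% and 61.3% in MEF 4 and 5. The groups did not overlap, with means of 52.6% ± 1.96 (SD, n = 3) and 60.4% ± 1.16 (SD, n = 2), a difference of -7.89 points. The exact two-sided permutation p was 0.1, the smallest that the 10 splits of 5 libraries into 3 and 2 allow, and this limit holds for every permutation p given here. Tiles over 80% methylated made up 27.5% ± 5.22 (SD, n = 3) of tiles in iPSC and 40.8% ± 1.95 (SD, n = 2) in MEF. Tiles between 20% and 80% made up 46.5% ± 4.52 (SD, n = 3) and 37.7% ± 0.834 (SD, n = 2). Tiles under 20% made up 26.1% ± 0.709 (SD, n = 3) and 21.5% ± 1.11 (SD, n = 2). Among the tested tiles, the iPSCs thus had fewer that were highly methylated and more at middle and low levels.

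**Figure D1:**
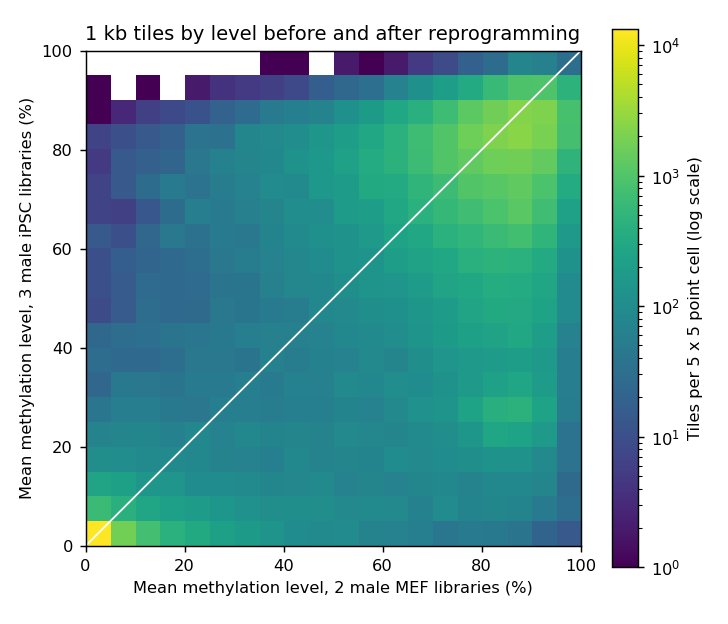
Mean level of each 1 kb tile in the 2 male MEF libraries (horizontal axis, percent) and the 3 male iPSC libraries (vertical axis, percent), with the number of tiles per cell of 5 by 5 points in colour on a log scale and the line of equal levels in white. Tiles spread further below the line than above it at high MEF levels, and a separate patch of tiles at 80% to 90% in MEF lies near 25% in iPSC.

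Single tiles were tested with a quasi-binomial model and counted as changed at a Benjamini-Hochberg adjusted p under 0.05 with a difference of at least 10 points between the group means. In iPSC, 18106 tiles (18.9% of those tested) were lower and 4609 (4.81%) were higher. Lower tiles went from a median of 83.1% in MEF to 31.9% in iPSC, with a median difference of -36.6 points, and 5329 of them fell by more than 50 points. Of the lower tiles, 30.8% ended under 20% methylated, so most losses were partial. Higher tiles went from a median of 41.5% to 79.3%, with a median difference of 30.5 points, and 583 rose by more than 50 points. Of the higher tiles, 47.6% ended over 80%. All libraries of one group lay beyond all of the other in 17886 of the lower and 4585 of the higher tiles, as in 49398 (51.6%) of all tested tiles. Without the library labelled male MEF 5 the same model called 0 tiles in either direction, with 21686 at an unadjusted p under 0.05, while limma on log2 ratios of methylated to unmethylated reads called 15224 lower and 3461 higher. Without MEF 4 the model called 9191 lower and 1453 higher tiles, without iPSC 4 it called 11447 and 1486, and without iPSC 2 the higher tiles were 2866.

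Libraries did not read the same CpGs of a tile, so the levels were also taken from CpGs read in all 5 libraries. At least 3 such CpGs were present in 16324 lower tiles, of which 96.3% kept a difference of 10 points or more in the same direction, and in 4126 higher tiles, of which 90.3% did. Their median differences were -36.5 and 29.96 points on shared CpGs against -36.3 and 30.4 points on all CpGs. The sign was opposite on shared CpGs in 62 lower and 63 higher tiles.

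The level in MEF limits where a loss can be seen. Among tiles under 20%, of 20% to 80% and over 80% in MEF, the last had the largest share of lower tiles. In the 39346 tiles over 80% in MEF, the mean was 68.2%, 71.9% and 73.1% in the iPSC libraries and 88.9% and 87.7% in the MEF libraries, a difference of -17.2 points (exact permutation p = 0.1). Of these, 10472 (26.6%) were lower and 30 higher, where a rise of 10 points is only possible from under 90%. With the class taken from one MEF library and the difference from the other, the differences were -14.8 and -14.3 points. Choosing tiles by a high MEF level favours a separation of the groups. This limits every permutation p given for tiles over 80% in MEF. In the 36157 tiles between 20% and 80%, the groups overlapped at 56.2%, 60.9% and 59.4% against 59.4% and 64.0%, and the difference of -2.80 points did not exceed the spread between libraries (exact permutation p = 0.5). It was -0.618 points without MEF 5 and -1.47 points without iPSC 1. With at least 30 reads per tile it was -4.98 points, with at least 5 CpGs per tile -7.37 and with CpGs of 10 reads -5.67, and the groups then no longer overlapped (exact permutation p = 0.1 in each). That class held changes in both directions, 6910 tiles lower (19.11%) and 3532 higher (9.77%). In the 20269 tiles under 20% in MEF, where a fall of 10 points needs at least 10%, the means were 5.37% ± 0.390 (SD, n = 3) and 4.19% ± 1.28 (SD, n = 2), with 724 tiles lower and 1047 higher. The direction of that difference, 1.18 points, was not stable. With the class taken from MEF 4 and the difference from MEF 5 it was -0.152 points, and it was 3.75 points without MEF 5.

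Within the middle levels, 28.4% of tiles at 20% to 40% in MEF were lower and 23.2% higher. At 40% to 60% the shares were 20.7% and 16.97%, again close to each other, and at 60% to 80% they were 16.6% and 4.39%. Above that the share of lower tiles was larger again, with 23.6% at 80% to 90% and 31.6% at 90% to 100%. Of the tiles of 20% to 40% in MEF, 40.8% were under 20% and 7.22% over 80% in iPSC. Choosing tiles by their MEF level can add to such a spread. These narrower classes were not checked with the class from one MEF library and the difference from the other.

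CpG density, the number of CpGs of the tile that any library read, separated the methylated tiles further. Among tiles over 80% in MEF, those with 3 to 9 CpGs had means of 71.7%, 76.5% and 76.0% in iPSC and 89.2% and 87.7% in MEF, a difference of -13.7 points, and 19.001% of 21104 were lower. With 10 to 19 CpGs the difference was -17.1 points, with 27.0% of 12527 tiles lower, and with 20 to 39 CpGs it was -28.2 points, with 47.3% of 4557 lower. With 40 or more CpGs the means were 45.7%, 43.96% and 50.1% in iPSC and 87.0% and 86.9% in MEF. That is a difference of -40.4 points, and 926 of 1158 tiles (79.97%) were lower and 0 higher. The exact permutation p was 0.1 in each of these classes, and the loss grew in size with each step in density. Median reads in the shallowest library rose with density from 21 to 70 over these classes. In tiles with 15 to 40 reads there, the differences were -13.4 points for 3 to 9 CpGs and -52.6 points for 40 or more (190 tiles). With the class taken from one MEF library and the difference from the other, they were -10.9 and -10.2 points against -39.4 and -39.3 points. Tiles between 20% and 80% in MEF followed the same order, from 1.56 points at 3 to 9 CpGs (exact permutation p = 0.6) to -29.0 points at 40 or more (559 tiles). The values between were -6.01 and -20.5 points. Their shares of lower tiles were 11.8%, 23.8%, 49.4% and 74.2% by density, against 19.001%, 27.0%, 47.3% and 79.97% over 80% in MEF.

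**Figure D2:**
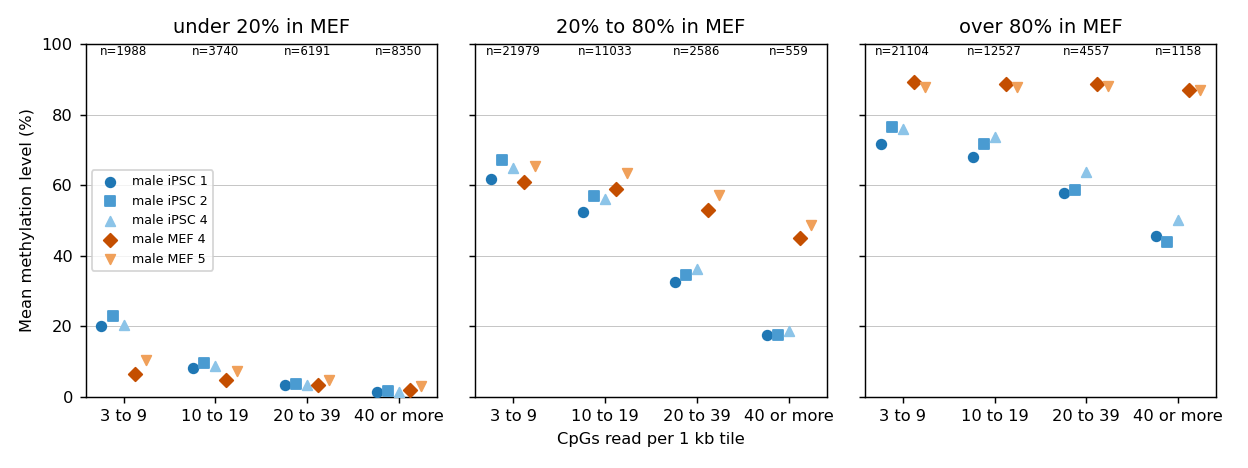
Mean methylation level (percent) of 1 kb tiles in each of the 5 libraries, by the number of CpGs read per tile (horizontal axis) and the level in MEF (panels); n is the number of tiles. In tiles over 80% in MEF the 3 iPSC libraries fall from 71.7% to 76.5% at 3 to 9 CpGs to 43.96% to 50.1% at 40 or more, while both MEF libraries stay at 86.9% or above.

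Dense tiles that were already free of methylation in MEF stayed so. Of 8350 tiles with 40 or more CpGs under 20% in MEF, 99.3% were under 20% in iPSC, and the means were 1.501% ± 0.0911 (SD, n = 3) and 2.47% ± 0.823 (SD, n = 2). Sparse tiles under 20% in MEF, in contrast, held more gains. Of 1988 such tiles with 3 to 9 CpGs, 478 (24.0%) were higher, and the means were 20.1%, 22.9% and 20.2% in iPSC against 6.38% and 10.4% in MEF. That difference of 12.7 points was 9.17 and 10.4 points with the class taken from one MEF library and the difference from the other. Of all higher tiles, 61.2% had 3 to 9 CpGs and 1.32% had 40 or more, against 37.0% and 8.35% of the lower tiles.

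**Figure D3:**
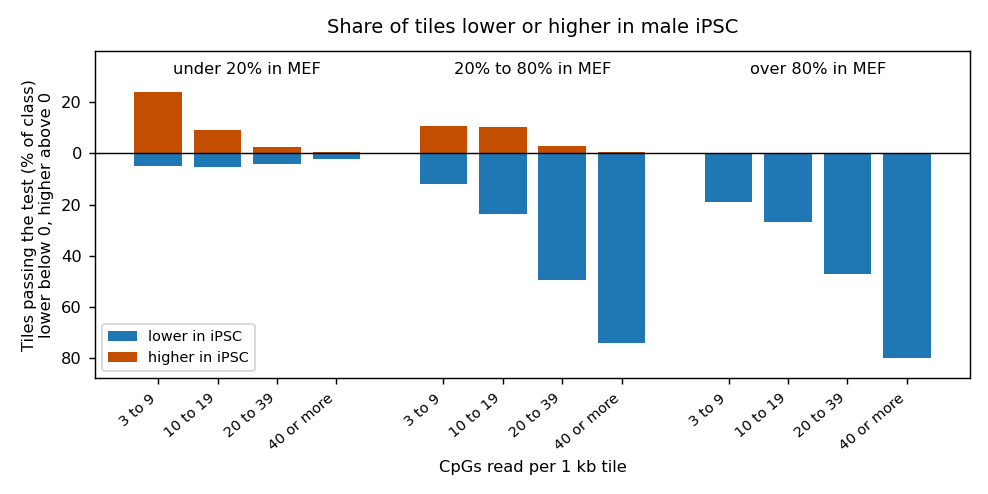
Percent of 1 kb tiles that passed the test as lower (below 0) or higher (above 0) in male iPSC, by CpGs read per tile and level in MEF. The share of lower tiles grows with density to 79.97% in tiles over 80% in MEF, and the share of higher tiles is largest, at 24.0%, in tiles of 3 to 9 CpGs under 20% in MEF.

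The densest methylated tiles did not form one population. Of the 1158 tiles, 36.5% had a level of 20% to 30% in iPSC and 27.98% a level of 60% to 70%, with 4.58% to 10.4% in each 10-point step between. Only 2.33% were still over 80%. Tiles of 3 to 9 CpGs over 80% in MEF showed a single peak instead, with 41.0% of them at 80% to 90% in iPSC. In the 423 dense tiles of the lower peak the library means spread by an SD of 3.11 points in iPSC and 0.0502 points in MEF.

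Most of these dense methylated tiles held sequence that recurs in the genome. A run of 6 neighbouring CpGs, compared by its spacing and the base on each side of each CpG, was called repeated where it was found at 10 or more places of the tables. Such a run was present in 1105 of the 1158 tiles (95.4%), with a median of 2313 places, against 8.40% of the 8350 dense tiles under 20% in MEF. The 20% to 30% peak (96.9%) and the 60% to 70% peak (99.1%) were alike in this. How reads were divided among such copies is not given in the sources used here. These tiles may share reads, which was not tested, and their family was not identified. The order by density was also present in tiles over 80% in MEF whose run was seen at 1 place. Their differences were -15.9 points at 3 to 9 CpGs (4641 tiles), -19.8 at 10 to 19 (7124), -33.1 at 20 to 39 (1182) and -58.7 at 40 or more (50). Over all tiles, 28.8% of the lower tiles with a run held a repeated one, against 6.81% of the higher and 16.9% of the others. With tiles holding a repeated run left out of the fit, 13927 tiles were lower and 4252 higher, and the difference over all tiles of 40 or more CpGs was -2.55 points in place of -7.06, and that of 20 to 39 CpGs -9.33 in place of -13.9.

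Changed tiles lay near each other. Of lower tiles with another tested tile within 10 kb, 38.2% had a lower tile as the nearest one, against 20.1% over all tested tiles with such a neighbour and 15.5% of those not lower. Of higher tiles, 12.998% had a higher neighbour, against 4.28% over all tested tiles. Where the nearest tested tile, on either side, was 1 kb away, it was lower for 50.4% of lower tiles and for 13.1% of tiles not lower. These shares were 30.8% and 16.5% at 2 to 5 kb, 22.6% and 18.9% at 6 to 10 kb, and 19.2% and 15.2% at 11 to 50 kb. For higher tiles the shares were 17.6% and 2.69% at 1 kb and 9.79% and 5.78% at 11 to 50 kb. For losses, nearest neighbours were thus less alike beyond a few kb than at 1 kb, although each distance holds different tiles. Among pairs that were both over 80% in MEF, a lower tile had a lower neighbour in 49.4% of cases, against 20.5% for tiles not lower. Where both tiles of such a pair had 3 to 9 CpGs, the shares were 36.7% and 16.3%. Where both had 20 or more CpGs, they were 80.2% and 29.8%. Neighbours can share a starting level and a CpG density, and whether either underlies these shares was not tested. Without tiles holding a repeated run, and at any level in MEF, 34.9% of lower tiles had a lower neighbour, against 18.5% over all tested tiles. Of lower tiles, 1.56% had a higher tile as the nearest one, against 4.97% of tiles not lower, the higher ones among them. The starting level was not held equal in this comparison. Tiles over 80% in MEF held 10472 of the 18106 lower tiles and only 30 higher ones. No test was made of these shares.

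**Figure D4:**
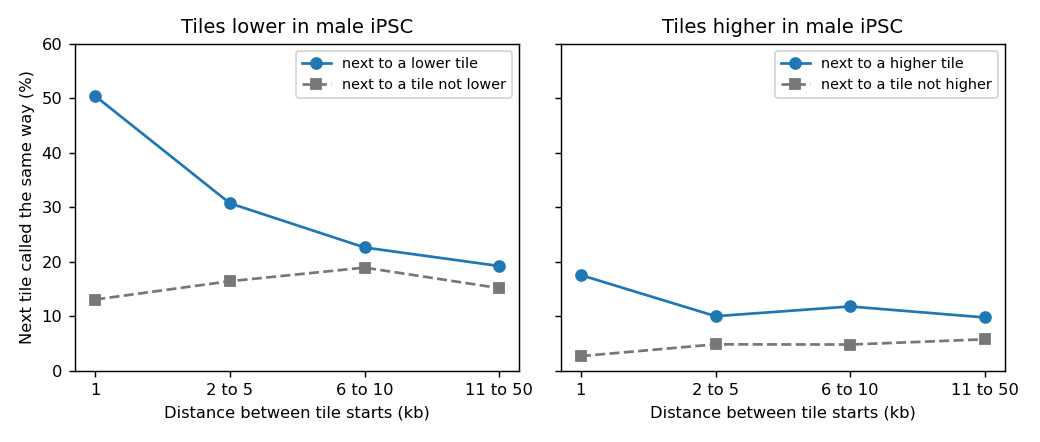
Percent of tiles whose nearest tested tile, on either side, was lower (left) or higher (right) in male iPSC. Shares are given by the distance between tile starts in kb, for tiles called the same way (filled circles) and tiles not so called (squares). For lower tiles the lines are at 50.4% and 13.1% at 1 kb and approach each other by 6 to 10 kb.

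Joined at gaps of up to 10 kb, the lower tiles formed 12972 groups, of which 9774 were single tiles and 219 held 5 or more. The higher tiles formed 4239 groups, of which 3926 were single tiles and 3 held 5. The group with the most lower tiles, chr8:123044001-123100000 (mm9), had 15 of 24 tested tiles lower and none higher and holds a start of Gse1. Its lower tiles averaged 19.003%, 26.1% and 29.6% in the iPSC libraries and 68.4% and 72.8% in the MEF libraries. The next, chr7:19947001-20020000, had 14 of 21 tiles lower at 28.6% ± 2.12 (SD, n = 3) against 69.5% ± 0.652 (SD, n = 2). It holds starts of Cd3eap, Ppp1r13l, Klc3 and Ckm, the muscle creatine kinase. The third, chr18:37885001-37927000, had 12 of 17 tiles lower, at 13.2% ± 4.66 (SD, n = 3) against 53.2% ± 2.40 (SD, n = 2). The largest groups of gains had 5 higher tiles each. At chr11:117093001-117098000 all 5 tested tiles were higher, with 62.5%, 65.2% and 62.8% in iPSC and 23.7% and 21.3% in MEF. At chr8:123400001-123418000, 5 of 7 were higher, with 78.9% ± 2.13 (SD, n = 3) against 41.6% ± 11.3 (SD, n = 2). At chr8:126112001-126141000, 5 of 18 were higher and 1 lower, with 26.7% ± 1.49 (SD, n = 3) against 8.17% ± 1.27 (SD, n = 2).

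On the scale of chromosomes the change was spread widely. The share of lower tiles ran from 16.2% on chromosome 13 to 21.7% on chromosome 15, and that of higher tiles from 3.54% on chromosome 17 to 5.54% on chromosome 2. Over 1753 bins of 1 Mb with at least 20 tested tiles, the median share of lower tiles was 16.9%, and 1732 bins held at least 1. The highest share, 50%, was in the bin at chr4:12000001-13000000, with 14 of 28 tiles lower and 0 higher. The highest share of higher tiles, 29.4%, was at chr7:143000001-144000000, with 10 of 34 tiles higher and 1 lower. In the bin at chr4:152000001-153000000, 21 of 78 tiles were higher, and the mean difference there was 14.4 points.

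The largest single losses were nearly complete. Among lower tiles with at least 5 CpGs of 10 reads in every library and groups that did not overlap (220 tiles), the largest was at chr1:34234001-34235000. It had 0.694%, 0% and 3.03% in iPSC and 89.4% and 92.7% in MEF, a difference of -89.8 points (adjusted p = 0.000267). The tile at chr4:131456001-131457000, with 61 CpGs, had 5.98%, 7.14% and 14.4% in iPSC and 94.5% and 94.8% in MEF. The 10 largest losses of this kind ran from -89.8 to -73.4 points, and no iPSC library exceeded 23.9% in any of them. Among 34 higher tiles of this kind the largest gain was at chr7:143694001-143695000, in the 1 Mb bin with the highest share of gains. It had 81.1%, 81.4% and 79.1% in iPSC and 14.6% and 15.1% in MEF, a difference of 65.7 points (adjusted p = 0.000267). The 10 largest gains ran down to 34.2 points. All 20 of these tiles passed the test in each fit that left out 1 iPSC library, except the gain at chr15:12997001-12998000, which was lost without iPSC 4 and without MEF 4. The gain at chr9:98862001-98863000 was lost without MEF 4, and none of the 20 was called by the model without the library labelled male MEF 5.

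Most tiles at gene starts had little methylation before and after reprogramming. Start sites were placed in the tables by matching the CpG spacing of RefSeq promoters, which worked for 11077 of 27025 genes. This step left out chromosome 18. Of 7945 tiles holding a matched start, 6.70% were lower and 1.62% higher, and their means were 5.59% ± 0.253 (SD, n = 3) in iPSC and 7.96% ± 0.7999 (SD, n = 2) in MEF. Within 5 kb of a matched start 23.4% of 10739 tiles were lower and 2.39% higher, and farther away 19.5% of 73990 were lower and 5.48% higher. The 7088 start tiles under 20% in MEF left little room for a loss, and 2.09% of them were lower. Of the 857 start tiles at 20% or more in MEF, 384 (44.8%) were lower and 43 (5.02%) higher. Of the 158 start tiles over 80% in MEF, 67 (42.4%) were lower, against 25.6% of 35435 tiles over 80% that lay farther than 5 kb from a start. CpG density, with which the share of lower tiles rose, was not held equal between these sets. No test was made of these shares. Of the 1158 dense methylated tiles, 3 held a matched start and 1106 lay more than 5 kb from one. Starts were matched only where their CpGs were found at 1 place, so starts in repeated sequence could be missed. These counts therefore do not show that the dense tiles lie away from genes.

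For a listed gene, the start tile taken was the tested one that overlapped most with the 500 bases on each side of its start. In Tuba3a, Lin28a, Cldn7 and Hoxa3 this tile lay beside the start, and none of these genes passed. The shares over all start tiles count only tiles that hold a start. Of 19 listed germline genes, 10 had a tested start tile, and 5 of these were lower and 0 higher. All 10 were over 20% in MEF, where 44.8% of all start tiles were lower, so the count is near that of other methylated starts. Their median difference was -35.9 points, against -18.5 points over all start tiles at 20% or more in MEF. In Rpl10l, a germline retrocopy of a ribosomal protein gene, the tile had 25.3%, 26.7% and 39.5% in iPSC and 90.9% and 95.7% in MEF (adjusted p = 0.00151). Reads of Rpl10l and its parent gene could be mixed. In Slc25a31 it had 48.0%, 43.1% and 45.9% against 100% and 90.2% (adjusted p = 0.00122), and in Mael 23.7%, 25.1% and 35.2% against 77.8% and 75.5% (adjusted p = 0.00582). In all 3 genes the iPSC libraries lay far below both MEF libraries. Ddx4 had 26.1% ± 2.43 (SD, n = 3) against 50% and 88.8% (adjusted p = 0.0107). Dazl, an RNA-binding protein of germ cells, had 26.8% ± 6.52 (SD, n = 3) against 55.1% ± 11.6 (SD, n = 2) (adjusted p = 0.0122), a call not made by limma. Tuba3a, a testis tubulin, differed by -44.4 points and did not pass (adjusted p = 0.0837). Tdrd1, Tex101, Hormad1 and Sycp1 did not pass either, with -21.2, -16.3, -12.3 and -10.9 points.

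Of 26 listed pluripotency genes, 10 had a tested start tile, with 2 lower and 0 higher, where 18.9% of all tested tiles and 6.70% of all start tiles were lower. The list had a median of 1.36% in MEF and 0.915% in iPSC. Of its 2 starts at 20% or more in MEF, 1 was lower, against 44.8% of all start tiles at that level. Zfp42, whose product Rex1 marks naive pluripotent cells, had 1.96%, 5.93% and 3.07% in iPSC and 44.1% and 64.7% in MEF (adjusted p = 0.000792). The tile at chr8:44392001-44393000 was the largest loss of the list. Nr5a2, a nuclear receptor of early embryos and pluripotent cells, had 3.45%, 0% and 0.216% against 11.3% and 15.5% (adjusted p = 0.0194). Sox2 and Klf4, reprogramming factors, were under 2% in both groups, so their starts left little room for a loss. Esrrb, an orphan nuclear receptor of pluripotent cells, had 36.6% ± 6.25 (SD, n = 3) against 30.5% ± 3.17 (SD, n = 2) and did not pass (adjusted p = 0.560). On the 2 CpGs of the Esrrb tile that all libraries read, it had 39.1% ± 10.3 (SD, n = 3) against 8.14% ± 8.69 (SD, n = 2). The starts of the other 16 listed genes, Pou5f1 and Nanog among them, were not analysed here.

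Of 14 epithelial genes, 6 had a tested start tile, with 2 lower and 0 higher, against the same 6.70% lower over all start tiles. These 2 were the only starts of the list at 20% or more in MEF, where 44.8% of all start tiles were lower. Krt18, a keratin of simple epithelia, had 5.79%, 8.93% and 4.09% in iPSC and 32.9% and 28.9% in MEF (adjusted p = 0.000791). Cldn4, a tight junction claudin, had 0%, 0% and 0.917% against 27.8% and 21.1% (adjusted p = 0.00755). On the 2 CpGs of the Cldn4 tile that all libraries read, the difference was -8.33 points in place of -24.1. None of 6 tested starts of 28 fibroblast and mesenchymal genes passed in either direction, and they had medians of 2.08% in MEF and 1.47% in iPSC. Vim, an intermediate filament of fibroblasts, had 1.21% ± 1.05 (SD, n = 3) in iPSC against 1.74% ± 2.47 (SD, n = 2). Snai1, a factor of the mesenchymal state, differed by -5.63 points at an adjusted p of 0.0144 and so missed the minimum difference. The tested starts of fibroblast genes thus had low levels before and after reprogramming.

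Hox genes give cells their position along the body axis, and the list held only the 22 found among the RefSeq promoters used here. Of these, 15 had a tested start tile, with 3 lower and 1 higher. Over all tested tiles 18.9% were lower, and over all start tiles 6.70%. Of the 3 Hox starts at 20% or more in MEF, 1 was lower, against 44.8% of all start tiles at that level. With so few genes in each of these lists, the shares are a description only. Hoxa5 had 1.41%, 7.69% and 3.11% in iPSC and 28.3% and 40.2% in MEF (adjusted p = 0.00282). On shared CpGs its MEF libraries were far apart, with 34.4% ± 48.6 (SD, n = 2) over 6 CpGs. Hoxa6 (-12.2 points, adjusted p = 0.0185) was not called by limma, and Hoxb1 (-13.1 points, adjusted p = 0.00800) was not called in the fit over 11 libraries. Hoxd4 went the other way, with 67.4%, 75.9% and 70.9% in iPSC and 47.5% and 29.2% in MEF (adjusted p = 0.00708). Without the library labelled male MEF 5 the model called none of the list genes named here. Limma without it also lost Nr5a2, Dazl, Ddx4, Hoxa6 and Hoxd4. Nr5a2, Cldn4, Mael, Hoxa6 and Hoxb1 were lost without MEF 4, and Nr5a2, Cldn4, Ddx4 and all 4 Hox genes without iPSC 4.

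**Figure D5:**
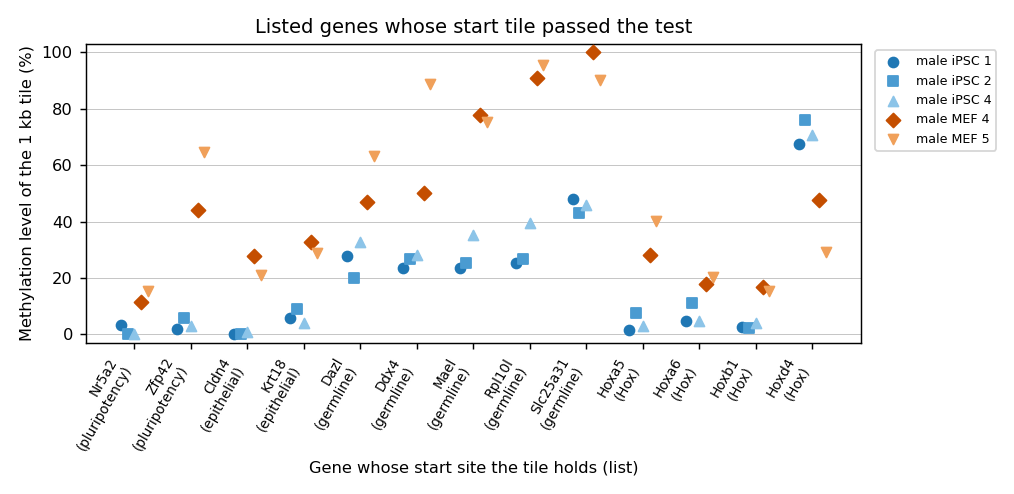
Methylation level (percent) in each of the 5 libraries of the 1 kb tiles that hold the start of a listed gene and passed the test, with the list in brackets. The iPSC libraries lie below both MEF libraries in 12 genes and above them in Hoxd4.

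Beyond the lists, the starts with the largest changes were looked up after their values were seen. Jade1 fell the most, with 2.34%, 1.72% and 3.73% in iPSC and 100% and 92.6% in MEF over the whole tile (adjusted p = 0.000392). Rpl22, a ribosomal protein gene, had 5.54%, 20.2% and 18.8% against 87.0% and 91.1%. A pair of germline genes outside the list was also among the largest losses. D1Pas1, a testis helicase, had 18.8% ± 10.1 (SD, n = 3) against 91.3% ± 4.41 (SD, n = 2), and Zglp1, a germ cell zinc finger factor, had 22.0% ± 6.47 (SD, n = 3) against 90.2% ± 6.45 (SD, n = 2). Of the gains, Siah3 had 67.1%, 81.8% and 70.4% against 10.7% and 13.2%, and Abcc9 had 59.5%, 81.8% and 42.8% against 5.56% and 1.91%. Cavin4, a caveolar protein of muscle, had 87.5% ± 1.78 (SD, n = 3) against 15.3% and 52.3%. These 7 differences were between -95.4 and -62.6 points for the losses and 52.7 and 62.7 points for the gains on shared CpGs. Abcc9 was not called in the fit over 11 libraries or without MEF 4, and Cavin4 was not called without iPSC 4.

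Some called starts rested on CpGs that the libraries did not share. Of the 50 starts with the largest changes, 25 in each direction, 3 (Gatm, Crb2 and Gm27572) had no CpG read in all 5 libraries, and in 3 (Mybbp1a, AA387883 and Col6a5) the difference on shared CpGs was much smaller. The tile of Gatm, an enzyme of creatine synthesis, was 82.7 points higher in iPSC, and was not compared on shared CpGs. The tile of Mybbp1a, a nucleolar protein gene, was 66.2 points lower in iPSC, yet on its 8 shared CpGs the levels were 0%, 0% and 0.413% in iPSC and 0% and 1.33% in MEF. For AA387883 the difference was 17.3 points on 1 shared CpG in place of 71.9, and for Col6a5 14.04 points on 2 in place of 46.9.

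The tiles called between MEF and iPSC were then read in libraries that had not entered the calls. Of the lower tiles, 16938 were covered in the SSEA1 sorted libraries, where the mean was 73.0% in SSEA1 negative and 71.8% in SSEA1 positive cells, against 74.2% in MEF and 35.6% in iPSC on the same tiles. Of the higher tiles, 4306 were covered, with 42.5% and 41.6% against 40.3% in MEF and 72.5% in iPSC. The dense methylated tiles were at 85.0% and 84.5% in these cells (1154 tiles). In tiles of 3 to 9 CpGs over 80% in MEF they were at 84.9% and 84.04%, against 88.3% in MEF and 74.8% in iPSC. Over all tiles they were at 59.1% and 58.2%, against 59.9% and 51.98%. The levels lay nearer to MEF than to iPSC in all 5 sets, and with 1 library each these differences have no replicate check. In the 4 XO iPSC libraries, the lower tiles were at 32.9% to 42.4% and the higher tiles at 65.5% to 75.3%, where the male iPSCs had 34.9% and 72.6% on the same tiles. In the 2 XaXa libraries the lower tiles were at 25.9% and 19.3% and the higher tiles at 48.7% and 39.9%, against 40.2% in MEF and 72.7% in male iPSC for the latter. Over all tiles the XaXa libraries were at 35.8% and 28.9%, against 52.2% in male iPSC and 60.1% in MEF, so their levels were low beyond the called tiles as well. The MEF and male iPSC values are those that chose the tiles, so no test was made of these distances.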

How the data were processed

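The deposited tables give, for each CpG with reads, per the file headers, the count of all reads, the count of methylated reads and their fraction. The deposited counts are raw, and the deposited fraction was left unused. The submitters' processing notes name BSMAP and mm9. Filters and the handling of repeated sequence: not given in the sources used here.

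Counts were summed per 1 kb tile. Methylated and unmethylated reads of the 5 libraries were fitted tile by tile in a quasi-binomial model of 2 group means. Its dispersion was moderated over all tiles with squeezeVar of limma 3.58.1 (R 4.3.3) and kept at 1 or above, and F tests were adjusted by the Benjamini-Hochberg method. The test gives deeper libraries more weight, whereas the printed group means weigh all libraries alike. It was tested on simulated data, where small differences were often missed, so a tile that was not called is not shown to be equal. Class means were compared by exact permutation of the libraries with Python 3.11.15 and numpy 2.4.6.

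The members, gene lists and tests were chosen with earlier results of these data known. The rule for named tiles took, in each direction, the 10 largest differences with at least 5 CpGs of 10 reads in each library and groups that did not overlap, and the 3 groups with the most called tiles. The written design used gene lists only with an annotation of the files' build. None was used here, so starts were placed by a step added later: RefSeq promoters (GRCm38.p6) were matched to the tables by CpG spacing and neighbouring bases, at 1 place each, which kept 12691 of 32851 windows. Of 11555 matched with at least 6 CpGs, 1 was out of gene order. Windows with 4 or 5 CpGs were kept only in gene order. Chromosome 18 is left out of the values by distance to a start. The search for repeated runs of CpGs and 5 alternatives were added after seeing the data.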

Additional observations from a re-analysis of the deposited data

How the results depend on the processing

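The mean difference over all tiles stayed between -8.71 and -6.76 points when each library was left out in turn. Counts depended most on which libraries and CpGs entered: leaving out 1 library gave 0 to 15900 lower and 0 to 4116 higher tiles, and both zeros came without male MEF 5, where the smallest adjusted p was 0.0671; the cause was not tested. Fewer tiles could be tested with 30 reads per tile (10112 lower, 2600 higher), with 5 CpGs (11302, 2050), with CpGs read in all 5 libraries (10830, 2335), with CpGs of 10 reads in all 5 (1285, 289) and with 15 to 40 reads in the shallowest library (9279, 2591); a difference of at least 25 points left 3003 higher. Tiles at 20% to 80% in MEF differed by -7.37 points with 5 CpGs per tile, -5.67 with CpGs of 10 reads and -7.37 with the class from MEF 4 and the difference from MEF 5; tiles over 80% by -20.3 with 5 CpGs and -14.3 with the class from MEF 5 and the difference from MEF 4. Tiles under 20% differed by 2.63 points with 15 to 40 reads, 0.249 with 30 reads, 0.0939 with 5 CpGs, 0.260 with CpGs of 10 reads, -0.152 (reversed) with the class from MEF 4 and 0.724 to 3.75 with 1 library left out. By density, 3 to 9 CpGs gave -8.35 with CpGs of 10 reads and -7.67 with density from CpGs read in all 5; 20 to 39 CpGs gave -15.9 with 15 to 40 reads, -8.27 with CpGs of 10 reads, -8.92 with that density and -9.33 without repeated runs; 40 or more gave -7.66 with CpGs read in all 5, -4.38 with CpGs of 10 reads, -10.2 with that density (5 tiles), -2.55 without repeated runs and -7.64 to -6.49 with 1 library left out. The share of lower tiles next to a lower tile was 36.2% with 15 to 40 reads, 32.3% with CpGs read in all 5, 32.1% by limma without MEF 5, 40.8% with 5 CpGs, 35.2% with CpGs of 10 reads, 35.5% at 25 points, 40.5% in the fit over 11 libraries, 42.1% within 5 kb, 34.5% within 50 kb, 34.9% without repeated runs and 27.8% to 37.1% with 1 library left out. For higher tiles it was 11.3% with CpGs read in all 5, 11.2% by limma without MEF 5, 17.1% with 30 reads, 15% with CpGs of 10 reads, 11.4% at 25 points, 14.4% in the fit over 11 libraries and 9.07% to 12.3% with 1 library left out. No paired analysis was possible because the groups share fewer than 2 replicate numbers. Depth is limited by male iPSC 2 and male MEF 4, with a median of 39 and 40 reads per tile.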
